A study of Mus musculus with 10 samples.

Results

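The genes described here encode the machinery that copies chromosomal DNA. They are 45 mouse genes chosen by name, from the loading of the replicative helicase at origins to the assembly of histones behind the fork. Of these, 44 are named in the probe table of the array and all 44 were among the 13251 genes tested. For Chaf1a, a subunit of the chromatin assembly factor CAF-1, no signal was analysed and only the promoter was read. The 44 genes were read by 97 probe sets, of which 87 passed a filter on dim signals (brighter than the median of the array on 2 or more arrays), and each gene is described by its brightest kept probe set. For 43 of the 44 genes that signal lay above the median of all 10 arrays, and the exception was Tyms.

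RNA was measured on Affymetrix GeneChip 430 2.0 arrays in 3 groups of mouse cells. AG-haESC are haploid embryonic stem cell lines from androgenetic blastocysts, whose genome is paternal only. They are 5 lines of C57BL/6J background with 1 array each, of which replicates 1, 2, 4 and 5 (AGH-OG-1, AGH-OG-2, AGH-OG-3 and AGH-OG-4) carried an Oct4-EGFP transgene and replicate 3 (AGH-EG-1) an Actin-EGFP transgene. They were at passages 14, 15, 15, 12 and 14 in replicate order, on feeder cells in ES medium with CHIR99021, an inhibitor of GSK3, and PD0325901, an inhibitor of MEK. E14 is a diploid line of male embryonic stem cells, 129/Sv and wild type, at passage 17 on 3 arrays. MEF are diploid embryonic fibroblasts of a male B6D2F1 wild type embryo (d13.5), at passage 2 on 2 arrays. The sources used here give neither the medium of E14 and MEF nor whether the MEF arrays share an embryo. Cells took up the DNA dye Hoechst 33342 (15 µg/ml), and the haploid 1n peak or the diploid 2n peak was sorted, which the study describes as cells in G1 or G0, chosen to keep out haploid-derived cells that had become diploid. AG-haESC and E14 differ in ploidy, parental origin of the genome, strain, transgene and passage together, and the effects of these cannot be told apart. The p-values measure the spread between these arrays, which for E14 are arrays of the same line.

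The origin recognition complex marks the sites where replication can begin, and in G1 the loaders Cdc6 and Cdt1 place the ring-shaped MCM helicase on DNA there. At the start of S phase the kinase Cdc7 with its partner Dbf4, together with Mcm10, Cdc45 and the GINS complex, turns the loaded ring into an active helicase, after which primase, the polymerases, the sliding clamp and its loader copy the unwound strands. Many of these genes are known targets of the E2F transcription factors, and embryonic stem cells are known for a short G1 phase and rapid division compared with fibroblasts.

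Cell identity was checked with marker lists. The summed linear signal of 7 stem cell markers was 93500 to 104000 in AG-haESC and 96800 to 101000 in E14, against 400 to 492 in MEF. In MEF 6 of the 7, Pou5f1 and Nanog among them, lay below the array median on both arrays. The brightest markers weigh most in such a sum. In limma, Zfp42 was lower in AG-haESC than in E14 (-1.56 log2 units, adjusted p 0.0219) and Nanog was higher (0.87, adjusted p 0.00075). The other stem cell markers did not pass the adjusted p there. The sum of 9 fibroblast markers was 110000 to 133000 in MEF, 1010 to 1450 in E14 and, from replicate 1 to 5, 2070, 7390, 4700, 2410 and 4410 in AG-haESC, which is 1.7% to 6.08% of the MEF mean, compared with 0.829% to 1.19% in E14. Col1a1, Postn and Lum lay below the median in all E14 arrays. The sum of 6 macrophage markers was 340 to 463 in AG-haESC, 515 to 574 in E14 and 4350 to 4990 in MEF. Array medians lay between 55.9 and 68 on the linear scale. The E14 arrays were uneven, with a median SD over all genes of 0.33 log2 units on 3 arrays and 0.12 when replicate 3 was left out.

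The replication genes gave far higher signals in both kinds of embryonic stem cell than in the fibroblasts. All 44 genes were higher on each of the 8 stem cell arrays than on either MEF array, which held for 29% of all genes tested. With a call at a Benjamini-Hochberg adjusted p under 0.05 in limma and a difference of at least 2-fold, 40 of 44 were higher in AG-haESC than in MEF, against 19.7% of all genes, and 0 were lower, against 22.5%. For E14 against MEF, 43 of 44 were higher, against 20.9% of all genes, and 0 lower, against 21.3%. At an unadjusted p under 0.05, too, 0 were lower than in MEF in either comparison, against 31.7% of all genes for AG-haESC and 29.3% for E14. Both comparisons use the same MEF arrays, and 40 genes were higher in both, against 16.1% of all genes. The median difference was 2.06 log2 units (4.17-fold) for AG-haESC minus MEF, from 0.74 to 3.48, and 2.19 (4.58-fold) for E14 minus MEF, from 0.74 to 3.66. Over all genes tested the medians were 0.0045 and 0.08. In these sorted populations, more cells that express a gene and more RNA of it per cell cannot be told apart.

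**Figure D1:**
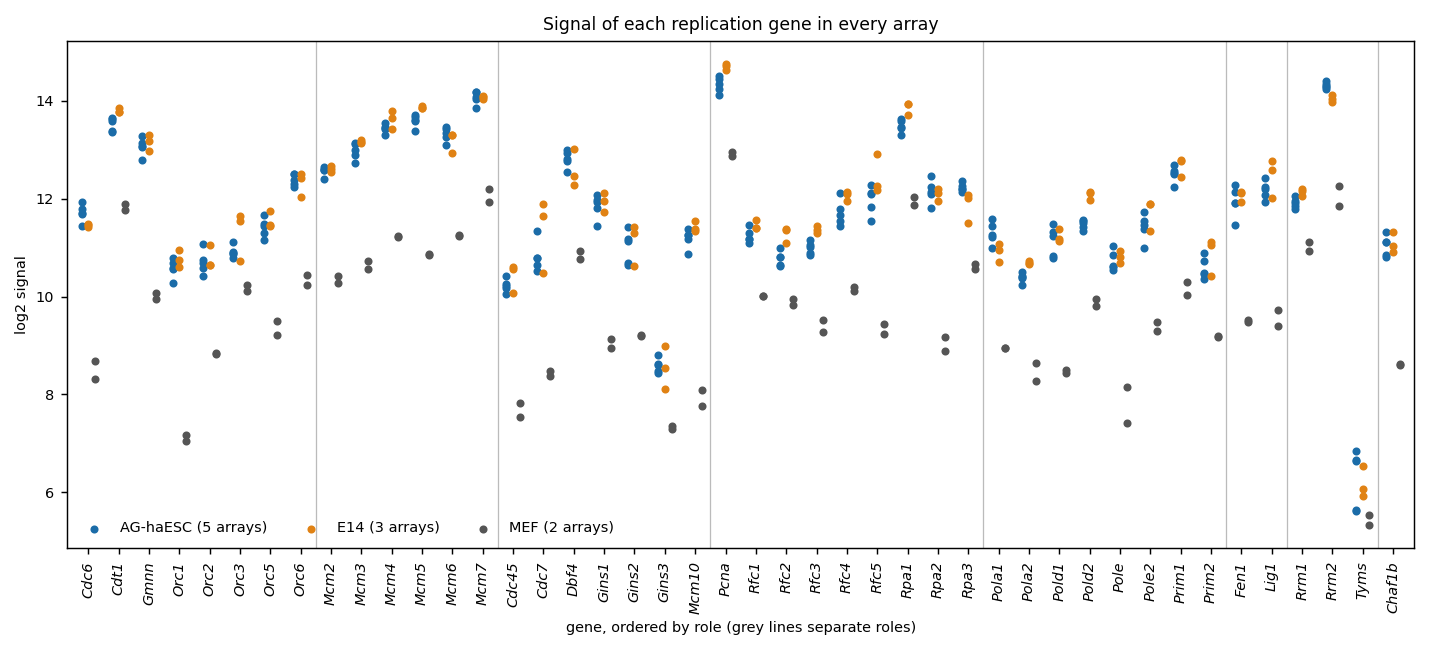
The log2 signal of the brightest kept probe set of each of the 44 replication genes is plotted for every array, with genes ordered by role along the x axis and 1 point per array (blue AG-haESC, orange E14, dark grey MEF). In each of the 44 genes both MEF points lie below all 8 stem cell points, and levels are not comparable between genes.

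Promoters of these genes were read for the E2F motif, since E2F factors are known to drive many of them at the start of S phase. RefSeq promoter windows of build GRCm38.p6, from 250 bases before to 50 bases after the annotated start, were listed for 38 of the 45 genes. They were searched on both strands for TTTCCCGC, TTTCGCGC and TTTGGCGC. A match was present in 14 of the 38 genes (36.8%), compared with 2.12% of all 27025 genes with a listed promoter and 3.99% of the 10673 listed genes that were tested here. The 4 promoters printed are those of the listed genes called in both stem cell groups that rank highest by the smaller of their 2 differences from MEF, each as 300 bases 5′ to 3′ on the gene's strand with motif matches in capitals.
Orc1 (chr4:108579204-108579503, plus strand): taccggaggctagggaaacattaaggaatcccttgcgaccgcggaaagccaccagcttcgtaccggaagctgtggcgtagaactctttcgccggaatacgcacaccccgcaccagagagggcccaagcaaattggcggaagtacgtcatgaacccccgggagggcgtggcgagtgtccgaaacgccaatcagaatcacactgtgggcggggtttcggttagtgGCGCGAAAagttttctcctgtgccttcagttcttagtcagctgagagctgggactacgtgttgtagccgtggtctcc
Mcm10 (chr2:5012742-5013041, minus strand): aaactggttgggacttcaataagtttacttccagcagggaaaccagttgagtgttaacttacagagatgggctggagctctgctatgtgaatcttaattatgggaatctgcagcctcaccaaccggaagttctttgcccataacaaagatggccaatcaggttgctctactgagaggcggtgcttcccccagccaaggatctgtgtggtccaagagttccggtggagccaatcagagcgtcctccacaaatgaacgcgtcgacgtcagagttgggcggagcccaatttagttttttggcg
Rpa2 (chr4:132768110-132768409, plus strand): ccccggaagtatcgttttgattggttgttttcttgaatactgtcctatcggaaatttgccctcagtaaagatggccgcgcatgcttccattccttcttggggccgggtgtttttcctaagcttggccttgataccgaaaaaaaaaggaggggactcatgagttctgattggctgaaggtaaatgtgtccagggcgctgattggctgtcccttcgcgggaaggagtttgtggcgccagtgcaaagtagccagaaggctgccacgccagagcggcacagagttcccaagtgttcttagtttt
Cdc6 (chr11:98907901-98908200, plus strand): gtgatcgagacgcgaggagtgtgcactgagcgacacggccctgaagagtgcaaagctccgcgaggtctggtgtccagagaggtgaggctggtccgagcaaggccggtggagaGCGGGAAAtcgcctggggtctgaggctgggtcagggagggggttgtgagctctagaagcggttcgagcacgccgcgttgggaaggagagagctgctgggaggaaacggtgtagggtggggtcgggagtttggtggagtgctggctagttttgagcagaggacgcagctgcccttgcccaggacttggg
Orc1 held TTTCGCGC on the opposite strand, with its first base at -27 from the start, and Cdc6 held TTTCCCGC on the opposite strand at -138. Mcm10 and Rpa2 held none of the 3 motifs in these windows. The Mcm10 window ends in TTTGGCG, so a TTTGGCGC match that crosses its edge would not be counted. All 4 genes were picked by their difference from MEF, so their similar rise says nothing about the motif.

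Matches were densest among the subunits of the MCM helicase, in 4 of the 5 with a listed promoter. Windows of 30 bases around the first match of each are shown to compare them, with every match in capitals.
Mcm3 (chr1:20820266-20820295, minus strand): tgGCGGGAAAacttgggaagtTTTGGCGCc
Mcm5 (chr8:75109347-75109376, plus strand): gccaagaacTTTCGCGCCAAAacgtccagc
Mcm6 (chr1:128359795-128359824, minus strand): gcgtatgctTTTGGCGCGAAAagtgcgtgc
Mcm7 (chr5:138172030-138172059, minus strand): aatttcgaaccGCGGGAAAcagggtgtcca
In Mcm5 and Mcm6 a TTTCGCGC and a TTTGGCGC match overlap on opposite strands, so that their capitals form a continuous run. Mcm3 has both of its matches inside the window, while Mcm6 has a further match at -47 and Mcm7 at 17. By role, a match was present in 4 of 7 listed helicase loading genes, 1 of 5 origin firing genes, 1 of 8 genes of the clamp, its loader and single-strand binding, 3 of 6 polymerase and primase genes, 1 of 2 Okazaki fragment genes, 0 of 3 nucleotide supply genes and 0 of 2 chromatin assembly genes. Genes with and without a match differed little from each other in the arrays. The median difference for AG-haESC minus MEF was 2.2 log2 units in the 14 with a match and 2.05 in the 23 tested genes without, and for E14 minus MEF it was 2.17 and 2.19. A match describes letters in the window and does not show that a factor binds there.

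**Figure D2:**
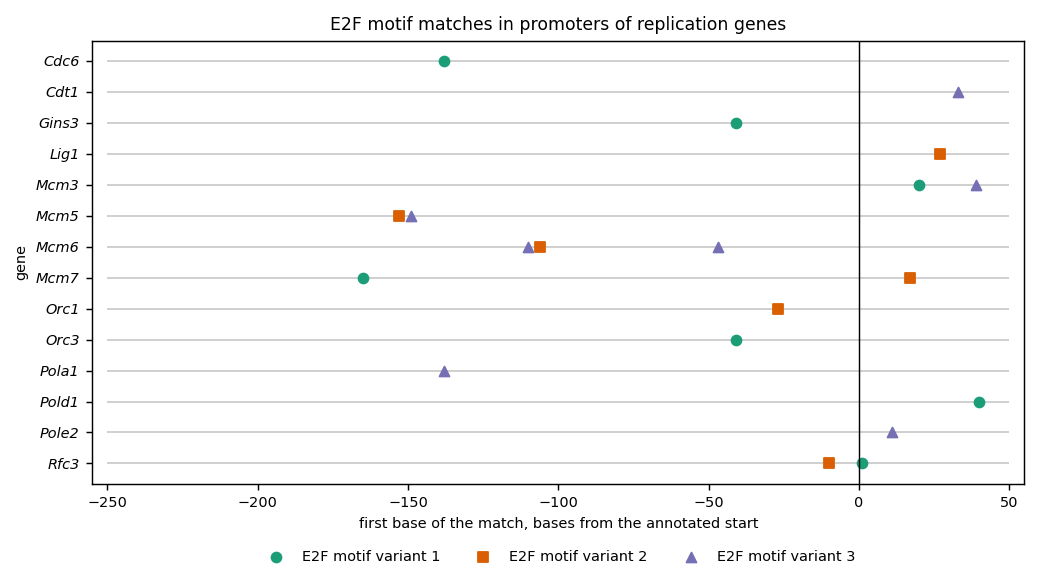
The position of each of the 20 motif matches is plotted for the 14 genes that have any, as the first base of the match relative to the annotated start (x axis, bases), with a circle for TTTCCCGC, a square for TTTCGCGC and a triangle for TTTGGCGC (variants 1, 2 and 3). Of the 20 matches 12 lie before the start, and they span -165 to 40.

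The helicase loading genes held the largest rise of any member. Orc1, the largest subunit of the origin recognition complex, had log2 signals of 10.59, 10.79, 10.68, 10.56 and 10.28 in AG-haESC replicates 1 to 5, 10.74, 10.96 and 10.60 in E14, and 7.16 and 7.05 in MEF. The AG-haESC and E14 arrays overlapped, and both MEF arrays lay far below them. Orc1 was 11.1-fold higher in AG-haESC than in MEF (3.48 ± 0.17 log2 units, SE, adjusted p 2.83e-08) and 12.6-fold higher in E14 (3.66 ± 0.19, adjusted p 5.32e-08). Cdc6, the ATPase that works with the origin complex to load the helicase, read 11.70, 11.68, 11.94, 11.79 and 11.45 in AG-haESC, 11.49, 11.42 and 11.47 in E14 and 8.31 and 8.69 in MEF. It was 9.29-fold higher in AG-haESC (3.22 ± 0.16, adjusted p 2.66e-08) and 7.81-fold higher in E14 (2.97 ± 0.17, adjusted p 1.26e-07). Geminin (Gmnn), the protein that holds Cdt1 in check outside G1, moved with the loaders rather than against them. Its signals were 13.06, 13.08, 13.15, 13.29 and 12.79 in AG-haESC, 13.31, 13.18 and 12.98 in E14, and 9.94 and 10.08 in MEF. That is 8.36-fold higher in AG-haESC (3.06 ± 0.14, adjusted p 1.69e-08) and 8.88-fold higher in E14 (3.15 ± 0.15, adjusted p 3.79e-08).

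Its target Cdt1, the partner of Cdc6 in loading, was 3.25-fold higher in AG-haESC and 3.92-fold higher in E14 than in MEF. Of the other origin complex subunits, Orc2, Orc5 and Orc6 rose by 1.87 to 2.05 log2 units in AG-haESC and by 1.94 to 2.2 in E14. Orc3, a core subunit of the same complex, was the exception. Its signals were 10.87, 10.78, 10.89, 11.11 and 10.91 in AG-haESC, 11.55, 11.64 and 10.72 in E14 and 10.23 and 10.11 in MEF. E14 replicate 3 sat below every AG-haESC line, while the other E14 arrays sat above them all. Orc3 was 1.67-fold higher in AG-haESC (0.74 ± 0.22, adjusted p 0.0115), short of 2-fold, and 2.2-fold higher in E14 (1.13 ± 0.24, adjusted p 0.00172), a call that was lost without E14 replicate 2 (0.97). Its other 2 probe sets, which were dimmer, went the opposite way, at -0.94 and -0.85 for AG-haESC minus MEF and -0.65 and -0.44 for E14 minus MEF. With the mean of its 3 probe sets the Orc3 difference turned to -0.35 for AG-haESC and fell to 0.02 for E14, so its direction depends on the probe set.

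The subunits of the MCM helicase all rose. The 6 were called higher in both comparisons, by 2.0 to 2.73 log2 units in AG-haESC and 1.94 to 3.01 in E14, with medians of 2.21 and 2.33. Mcm5 had the largest difference of the 6. It read 13.61, 13.59, 13.72, 13.67 and 13.38 in AG-haESC, 13.85, 13.86 and 13.89 in E14, and 10.85 and 10.87 in MEF, so that all E14 arrays were slightly above all AG-haESC arrays and both were far above MEF. Mcm5 was 6.65-fold higher in AG-haESC (2.73 ± 0.10, adjusted p 4.75e-09) and 8.04-fold higher in E14 (3.01 ± 0.11, adjusted p 7.22e-09). Mcm7, at the other end for AG-haESC, was 4.01-fold higher there and 4.05-fold higher in E14.

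The factors that fire a loaded origin had the largest median difference among the roles with more than 2 genes, 2.4 log2 units for AG-haESC and 2.74 for E14, and all 7 were called in both. Mcm10, which binds the ring as it is activated, read 11.25, 11.26, 11.39, 11.18 and 10.86 in AG-haESC, 11.38, 11.55 and 11.33 in E14, and 8.09 and 7.77 in MEF. The difference was 3.26 ± 0.17 for AG-haESC (9.56-fold, adjusted p 3.69e-08) and 3.49 ± 0.18 for E14 (11.2-fold, adjusted p 6.1e-08). Gins1, a subunit of the GINS complex that joins the active helicase, read 11.98, 11.93, 12.07, 11.81 and 11.45 in AG-haESC, 11.95, 11.73 and 12.12 in E14, and 8.95 and 9.13 in MEF. It was 7.0-fold and 7.41-fold higher (2.81 ± 0.17 and 2.89 ± 0.19). Cdc45, the other helicase cofactor, was 5.84-fold higher in AG-haESC and 6.68-fold higher in E14, and the kinase subunits Cdc7 and Dbf4 were 5.26-fold and 3.9-fold higher in AG-haESC. Gins3 had the smallest rise of the 7, 2.38-fold in AG-haESC and 2.31-fold in E14, and its E14 call was lost without E14 replicate 2 (0.98 log2 units).

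**Figure D3:**
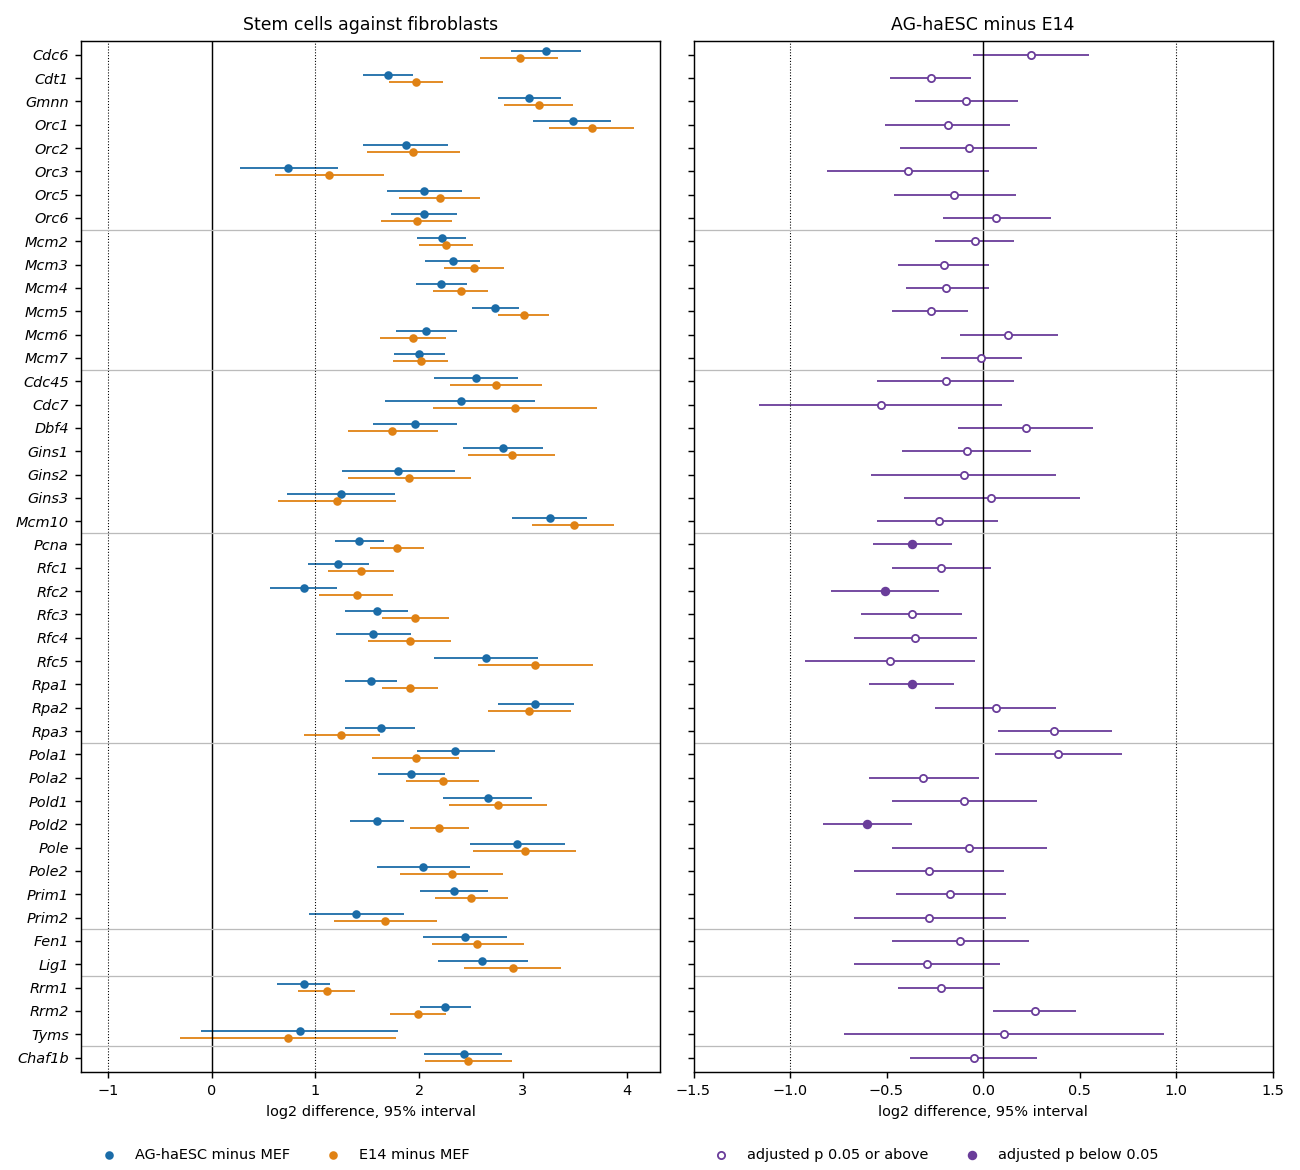
Differences between group means (x axis, log2 units) are drawn for the 44 genes in role order with 95% intervals, against MEF on the left (blue AG-haESC, orange E14) and between the stem cell groups on the right, with dotted lines at 2-fold. Every difference from MEF is above 0, with Tyms the interval that covers 0 in both comparisons, whereas on the right the differences lie between -0.6 and 0.39 and 4 genes have filled points.

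The clamp, its loader and the single-strand binding proteins had smaller and more uneven rises than the helicase, with medians of 1.56 log2 units for AG-haESC and 1.91 for E14. Rpa2, a subunit of the replication protein A that coats single-stranded DNA, was the largest in AG-haESC. It read 12.10, 12.14, 12.46, 12.23 and 11.82 in AG-haESC, 12.11, 11.96 and 12.19 in E14, and 8.88 and 9.18 in MEF, with the stem cell groups overlapping fully. It was 8.72-fold higher in AG-haESC (3.12 ± 0.17, adjusted p 4.93e-08) and 8.33-fold higher in E14 (3.06 ± 0.18, adjusted p 1.61e-07). Its partners in the complex rose less, Rpa1 by 2.91-fold and 3.75-fold and Rpa3 by 3.08-fold and 2.38-fold.

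Among the clamp loader subunits, Rfc5 had the largest difference from MEF and Rfc2 the smallest. Rfc5 read 12.29, 12.11, 12.10, 11.54 and 11.83 in AG-haESC, 12.26, 12.17 and 12.92 in E14, and 9.43 and 9.24 in MEF, and it was 6.24-fold and 8.69-fold higher than in MEF (2.64 ± 0.23 and 3.12 ± 0.25, adjusted p 2.13e-06 and 1.46e-06). Rfc2 read 10.80, 10.80, 10.99, 10.62 and 10.64 in AG-haESC, 11.36, 11.39 and 11.09 in E14, and 9.82 and 9.95 in MEF, with no overlap between any of the groups. Rfc2 was 1.85-fold higher in AG-haESC (0.89 ± 0.15, adjusted p 3.17e-04), short of the 2-fold call, and 2.63-fold higher in E14 (1.40 ± 0.16, adjusted p 2.29e-05). Rfc1, Rfc3 and Rfc4 lay between, at 2.34-fold to 3.01-fold in AG-haESC and 2.72-fold to 3.9-fold in E14. The clamp itself, Pcna, was 2.68-fold and 3.46-fold higher.

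All 8 polymerase and primase genes were called higher in both comparisons, with medians of 2.19 and 2.27 log2 units. Pole, the catalytic subunit of the leading-strand polymerase epsilon, read 10.85, 10.60, 10.62, 11.03 and 10.55 in AG-haESC, 10.68, 10.80 and 10.93 in E14, and 7.42 and 8.15 in MEF. The MEF arrays of this gene were the most unequal of any member, with an SD of 0.52. Pole was 7.7-fold higher in AG-haESC (2.94 ± 0.21, adjusted p 4.37e-07) and 8.09-fold higher in E14 (3.02 ± 0.23, adjusted p 8.88e-07). Pold1, the catalytic subunit of the lagging-strand polymerase delta, was 6.32-fold and 6.76-fold higher, and the primase subunits Prim1 and Prim2 were 5.05-fold and 2.63-fold higher in AG-haESC. The enzymes that finish the lagging strand rose by similar amounts. The flap nuclease Fen1 was 5.44-fold and 5.9-fold higher, and the DNA ligase Lig1 was 6.11-fold and 7.46-fold higher.

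The nucleotide supply enzymes split. Rrm2, the regulatory subunit of ribonucleotide reductase, was 4.77-fold higher in AG-haESC and 3.97-fold higher in E14. Its catalytic partner Rrm1 read 11.85, 11.91, 12.06, 11.95 and 11.80 in AG-haESC, 12.05, 12.15 and 12.20 in E14, and 10.93 and 11.12 in MEF. Rrm1 was thus 1.85-fold higher in AG-haESC (0.89 ± 0.12, adjusted p 4.86e-05) and 2.16-fold higher in E14 (1.11 ± 0.13, adjusted p 1.98e-05), on either side of the 2-fold line. Tyms, the thymidylate synthase, gave signals near background, at 5.62, 6.66, 5.64, 6.64 and 6.85 in AG-haESC, 5.91, 6.06 and 6.54 in E14, and 5.54 and 5.32 in MEF. They lay below the array median on 2 AG-haESC, 2 E14 and both MEF arrays. The Tyms difference from MEF passed no test, at 0.85 ± 0.43 for AG-haESC (adjusted p 0.111) and 0.74 ± 0.47 for E14 (adjusted p 0.198). Chaf1b, the CAF-1 subunit with a probe set, was 5.37-fold and 5.56-fold higher.

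Between the haploid and the diploid stem cells the same genes were close to each other. At 2-fold and adjusted p under 0.05, 0 of 44 were higher in AG-haESC, against 4.58% of all genes, and 0 were lower, against 3.74%. At an unadjusted p under 0.05 in limma, with no fold asked for, 3 of 44 were higher (6.82%), against 13.4% of all genes, and 11 were lower (25%), against 17.2%. The median difference for AG-haESC minus E14 was -0.18 log2 units, compared with -0.082 over all genes tested. Of the 44 genes 34 were below 0 and 10 above, compared with 7610 below 0 and 5641 above among all 13251. The 95% interval lay within 2-fold in either direction for 43 of 44 genes, compared with 7225 of all 13251. The exception was the kinase Cdc7, at -0.53 with an interval from -1.16 to 0.10. Its E14 signals were 11.65, 11.90 and 10.48, so that replicate 3 lay below every AG-haESC line while the other 2 lay above them all. Among the differences nearest 0 were the helicase subunits Mcm2 (-0.043, interval -0.25 to 0.16) and Mcm7 (-0.012, interval -0.22 to 0.20). An adjusted p above the threshold does not show that the groups are alike, and the interval gives the size that these arrays allow.

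By the adjusted p alone, with no fold asked for, 4 of 44 genes were lower in AG-haESC (9.09%), against 7.77% of all genes, and 0 were higher, against 8.08%. All 4 lay under 2-fold, and among all genes 4.04% were lower and 3.5% higher with the adjusted p and a difference under 2-fold. Pold2, an accessory subunit of polymerase delta, read 11.54, 11.51, 11.33, 11.56 and 11.42 in AG-haESC and 12.13, 12.11 and 11.98 in E14. The groups did not overlap, and Pold2 was 0.66-fold in AG-haESC (-0.60 ± 0.10, interval -0.83 to -0.37, adjusted p 0.00301). The clamp Pcna read 14.25, 14.34, 14.44, 14.52 and 14.12 against 14.71, 14.76 and 14.63, also without overlap (-0.37 ± 0.095, adjusted p 0.0238). Rpa1 read 13.47, 13.64, 13.45, 13.60 and 13.31 against 13.93, 13.94 and 13.72 (-0.37 ± 0.10, adjusted p 0.0282). Rfc2, with its arrays given above, was lower by the same rule (-0.51 ± 0.13, adjusted p 0.0217). Its other kept probe sets, which were dimmer, gave -0.63 and -0.19, with overlapping arrays. In limma over all kept probe sets their adjusted p was 0.246 and 0.685. With the mean of a gene's probe sets, Mcm5 and not Rfc2 was among the lower genes.

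Of these 4, 3 belong to the clamp, loader and single-strand binding genes, which as a role had the lowest median difference, -0.37 log2 units, with 7 of 9 below 0. The other members of that role were Rfc3 (-0.37, adjusted p 0.0551), Rfc5 (-0.48, adjusted p 0.132), Rfc4 (-0.35, adjusted p 0.127), Rfc1 (-0.22, adjusted p 0.229), Rpa2 (0.066, adjusted p 0.8) and Rpa3 (0.37, adjusted p 0.0809). Rpa1 and Rpa3, subunits of the same complex, thus had differences of opposite sign, and that contrast was not tested. In the helicase loading, MCM and origin firing genes the medians were -0.12, -0.11 and -0.099, near that of all genes. The polymerase and primase genes, Pold2 among them, had a median of -0.22, with 7 of 8 below 0. For the 2 Okazaki fragment genes it was -0.2, with 2 of 2 below 0, and for the 3 nucleotide supply genes 0.11.

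The count of genes below 2-fold rested on few arrays. It was 1, Pold2, without E14 replicate 1 and again without E14 replicate 2, 2 without AG-haESC replicate 1, and 9 without E14 replicate 3, when Dbf4 also became higher. Pold2 passed in every one of these fits. Fibroblast markers moved with this comparison, as 6 of the 9 were called higher in AG-haESC than in E14, against 4.58% of all genes. Their part in these differences was not tested.

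Counted by arrays alone, 9 genes were lower on every AG-haESC array than on any E14 array (20.5%), against 12.8% of all genes, and 2 were higher (4.55%), against 9.87%. The 9 were Mcm3, Mcm5, Cdt1, Pcna, Rfc2, Rfc3, Rpa1, Pola2 and Pold2. For Mcm3 the direction depends on the probe set, since the mean of its probe sets gave 0.10 in place of -0.20. A second bright probe set of Rfc3 gave -0.08, with overlapping arrays. The 2 higher were Rpa3 and Rrm2, at 0.37 and 0.27 log2 units (adjusted p 0.0809 and 0.089). Other bright probe sets of Rrm2 gave 0.12 and 0.01, with overlapping arrays. Pola1, the catalytic subunit of polymerase alpha and the only X-linked gene of the 44, had the most positive difference, 0.39 (interval 0.06 to 0.72, adjusted p 0.108).

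Among the haploid lines, the replication genes varied less than genes at large, with a median SD of 0.17 log2 units over the 5 lines compared with 0.29 over all genes tested. Their median signal was also higher, 11.71 compared with 8.69, and the part of signal level in this was not tested. AG-haESC replicate 5 stood lowest. It held the lowest signal of the 5 lines in 33 of 44 genes (75%), compared with 17.6% of all genes, and the median of the gene-centred signals was 0.51 there, against 0.72, 0.69, 0.73 and 0.78 in replicates 1 to 4. AG-haESC replicate 4 held the highest signal in 20 of 44 (45.5%), compared with 24.2% of all genes. Replicate 5 is at passage 14, as is replicate 1, and replicate 4 at passage 12 is the youngest. Against the MEF mean, the median over the 44 genes was 1.93 in replicate 5 and 2.13 to 2.21 in the other AG-haESC and E14 arrays, and all 44 stayed above the MEF mean on every array. Leaving out AG-haESC replicate 5 moved the median difference from E14 from -0.18 to -0.11.

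**Figure D4:**
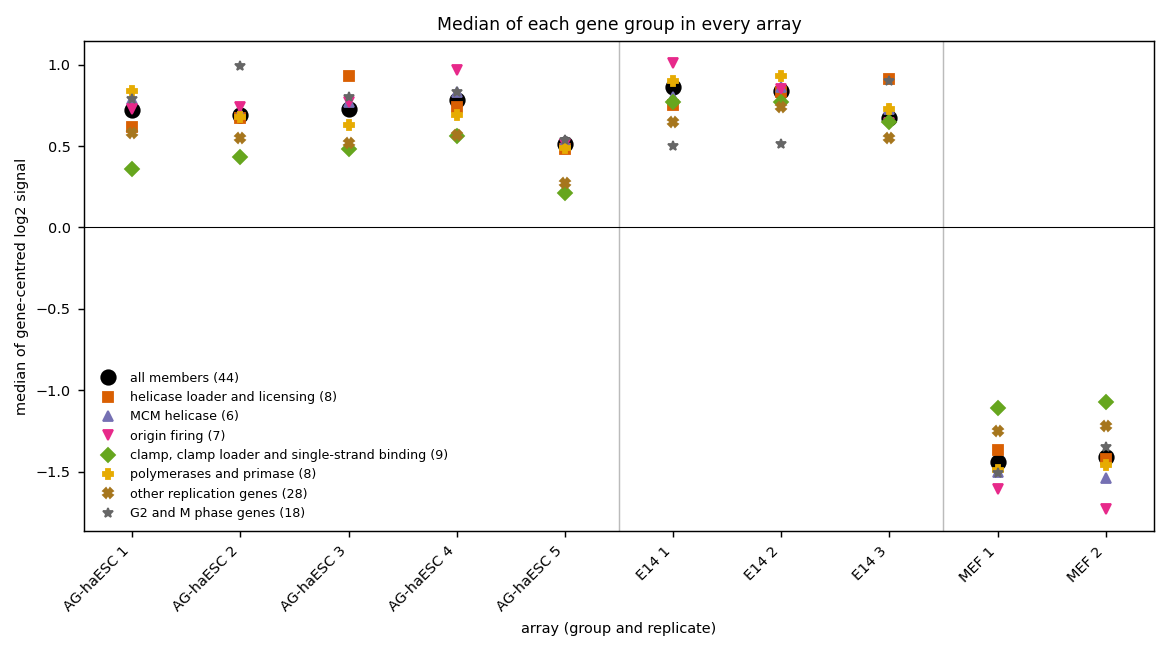
For each array (x axis) the median log2 signal over a gene group is plotted, with each gene centred on the mean of its 3 group means. The groups are all 44 replication genes (black circles), 5 of their roles, other replication genes and G2 and M phase genes. The black circles lie at 0.51 to 0.86 on the stem cell arrays, lowest in AG-haESC replicate 5, and at -1.44 and -1.41 on the MEF arrays.

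At the level of probe sets the rise over MEF held for nearly all of the 87. For AG-haESC against MEF, 75 were called higher, against 19.2% of all kept probe sets, and 0 lower, against 20%, and 85 had a difference above 0. For E14 against MEF, 78 were called higher, against 19.8%, and 0 lower, against 19.1%, and 84 had a difference above 0. The probe sets that went the other way were those of Orc3 described above and, for E14, a dim second probe set of Gins1. That Gins1 probe set is the only member probe set called between the stem cell groups, where 4.37% of all kept probe sets were higher in AG-haESC and 2.89% lower. It read 6.89, 6.88, 6.60, 6.70 and 6.84 in AG-haESC, 5.06, 5.45 and 5.58 in E14 and 5.73 and 5.58 in MEF, so that it was higher in AG-haESC than in E14 by 1.42 ± 0.26 log2 units (adjusted p 0.00524, adjusted over all kept probe sets). The bright Gins1 probe set had no such difference (-0.084, interval -0.42 to 0.25), and the mean of both gave 0.67 (adjusted p 0.00909). The name of the dim set marks it as one whose probes may also bind other transcripts (x_at). The brightest sets of Mcm5, Pold1, Fen1 and Rrm2 carry that mark too. Each of these genes has another kept set without it that was called higher in both comparisons with MEF.

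**Figure D5:**
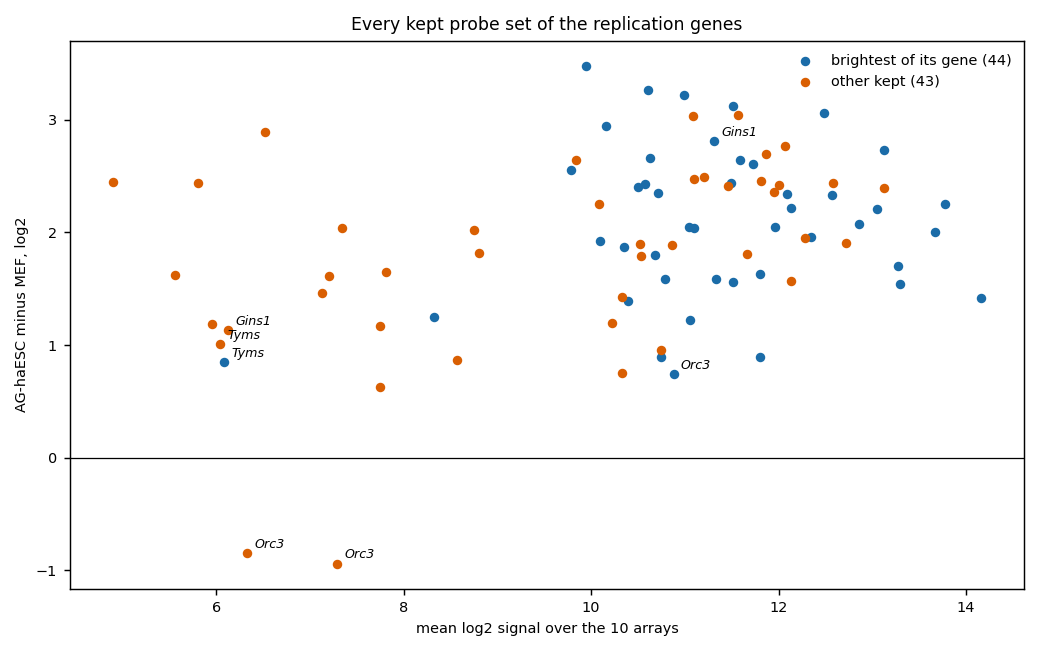
The difference AG-haESC minus MEF (y axis, log2 units) is plotted against the mean log2 signal over the 10 arrays for the 87 kept probe sets, blue for the brightest of its gene and orange for the others. All but 2 lie above 0, and the 2 below 0 are dim probe sets of Orc3 with mean signals of 6.33 and 7.29.

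Other genes of the replication fork that are not among the 44 followed the same pattern, from a list chosen with earlier results known. Of 28 such genes, 22 rose in AG-haESC relative to MEF, against 19.7% of all genes, and 1 fell, against 22.5%. In E14 23 rose, against 20.9% of all genes, and 1 fell, against 21.3%. The median differences were 1.66 log2 units in AG-haESC and 1.81 in E14. The largest rises were in Chtf18, a subunit of the alternative clamp loader (at least 10.3-fold in AG-haESC and at least 7.46-fold in E14, with both MEF arrays below the array median and taken at it, adjusted p 7.78e-06 and 3.92e-05), Ticrr, an origin firing factor (4.62 ± 0.50 in AG-haESC, with MEF arrays at 6.71 and 4.32, of which 1 lay below the array median, so that the size is uncertain), and Dna2, a flap nuclease (3.89 ± 0.18 in E14). Pold4, the smallest subunit of polymerase delta, was the gene that was lower, by -1.95 ± 0.31 and -2.0 ± 0.34 (adjusted p 2.23e-04 and 4.00e-04), while Pold1 and Pold2 of the same enzyme rose. Between AG-haESC and E14, 0 of the 28 were called at 2-fold, against 4.58% of all genes higher and 3.74% lower. Below that line Pold3 of polymerase delta was higher (0.89 ± 0.18, adjusted p 0.00798). Rnaseh2a, a subunit of the nuclease that removes RNA from DNA, was lower (-0.67). The fork protection partners Timeless and Tipin were also lower (-0.63 and -0.39), as was the firing factor Topbp1 (-0.34). In polymerase delta, then, Pold2 and Pold3 passed the adjusted p in opposite directions in AG-haESC against E14. The Pold3 probe set is an x_at set, whose probes may also bind other transcripts.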

How the data were processed

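The authors deposited linear signal intensities for each probe set, made with MAS5 per the submitters' processing notes. The 2% trimmed mean was 500 on every array, so the values are relative within an array and do not show total RNA. The sources used here do not give the software version. Of 45101 probe sets, 34945 pair with 1 gene symbol in the probe table, 932 with several, 9160 with none, and 64 are controls. Intensities were taken to log2. Probe sets above their array's median in at least 2 arrays (27505) were kept, and the brightest with 1 symbol stood for each gene. All 10 arrays entered 1 fit of 3 group means in limma 3.58.1 (R 4.3.3, 7 residual degrees of freedom, trended prior variance), and two-sided p-values were adjusted by Benjamini-Hochberg over 13251 genes. A gene is called at adjusted p under 0.05 and at least 2-fold. The fit was tested on simulated data. The members, gene lists and markers were chosen with earlier results of these data known. All members may be named. Every array is given for the 8 called members with the largest difference in each comparison, for members called from 1 stem cell group only against MEF, and for members of interest chosen after their values were seen (Pold2, Pcna, Rpa1, Cdc7, Tyms). Other genes are the 2 largest calls in each direction, with those past the adjusted p between stem cell groups added later. The alternatives tried are given in the closing section. The number of arrays limits the precision.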

Additional observations from a re-analysis of the deposited data

How the results depend on the processing

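The calls of members were recomputed with a pseudocount of 32, a floor at the array median, no filter and quantile normalization. The mean of a gene's probe sets and a fit of all kept probe sets were also used. That fit was counted by the brightest set of each gene, so it is no check on the other sets. Further settings were no trend, array weights, fits of 2 groups and each array left out. For AG-haESC against MEF 40 were higher in each setting, and 43 with the adjusted p alone. For E14 against MEF 43 were higher in each, except 42 with the mean of probe sets (Orc3 lost) and 41 to 43 with an array left out. With E14 and MEF replicates 1 and 2 and the replicate block, 43 were higher, as without the block on the same arrays, a fit chosen after seeing the data. The numbers share only a number, with pairing correlations of -0.0019 and -0.036. For AG-haESC against E14, 0 genes were called at 2-fold in any setting. The dim Gins1 probe set described above, which these counts leave out, was called higher when all kept probe sets were fitted. With the adjusted p alone, 4 genes were lower. By that rule the lower count was 1 to 9 with an array left out, 2 without the trend and 16 with array weights, where 2 were higher, and the cause was not tested. No called value reversed, but the mean of probe sets turned the uncalled AG-haESC minus E14 differences of Gins1, Mcm3, Mcm4, Orc2, Pole2 and Rfc1 to 0.67, 0.10, 0.03, 0.03, 0.09 and 0.06, that of Gins1 with an adjusted p of 0.00909. That of Orc3 against MEF, also uncalled, turned to -0.35 in AG-haESC. Array scaling moved the median of all genes for AG-haESC minus MEF from 0.0045 to 0.09 and for E14 minus MEF from 0.08 to 0.13 with quantile normalization. In groups of 5 lines, 0 of 44 members had a line that stood apart by Dixon's test. That test takes 1 gene at a time, so it cannot show a shift shared by many genes. AG-haESC replicate 5 was the lowest line in 33 of the 44.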

Other observations

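Gene groups next to the replication machinery, from lists chosen with earlier results known, were measured in the same fits. Of all genes tested, 19.7% were called higher and 22.5% lower in AG-haESC than in MEF, and 20.9% and 21.3% in E14. Genes of the G2 and M phases were higher than in MEF in 18 of 18 cases in AG-haESC and in 18 of 18 in E14, with median differences of 2.28 and 2.07 log2 units. Cenpf, a kinetochore protein, had 3.38 ± 0.21 in AG-haESC, and Bub1, a spindle checkpoint kinase, had 3.13 ± 0.21 in AG-haESC and 3.27 ± 0.22 in E14. The rise over MEF was thus present in genes of later cell cycle phases too, although the sorted peaks hold unreplicated DNA. Replication-coupled chromatin genes were higher in 9 of 11 cases in both groups, led by the histone acetyltransferase Hat1 (3.28 ± 0.15 and 3.48 ± 0.16) and by Uhrf1, which guides maintenance DNA methylation (2.55 ± 0.14 and 2.81 ± 0.16). Of 14 further nucleotide supply genes, 11 were higher in AG-haESC and 11 in E14, led by Ppat, the entry enzyme of purine synthesis (3.12 ± 0.25 in AG-haESC), and Shmt1 of folate metabolism (3.49 ± 0.22 in E14).

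Genes of the E2F and Rb network themselves moved less than the replication genes. Of 19, 5 were higher in AG-haESC than in MEF, against 19.7% of all genes, and 1 was lower, against 22.5%. In E14 11 were higher, against 20.9% of all genes, and 1 lower, against 21.3%. The median differences were 0.8 log2 units in AG-haESC and 1.08 in E14. Ccna2, the S phase cyclin A2, was higher by 2.54 ± 0.16 in AG-haESC, and E2f8 by 2.33 ± 0.49 in AG-haESC and 2.33 ± 0.54 in E14. The MEF arrays of E2f8 read 6.28 and 8.08, so that the size of its rise is uncertain. Rbl2, the pocket protein p130 that represses E2F targets in resting cells, was lower by -2.25 ± 0.40 in AG-haESC and -1.42 ± 0.43 in E14. E2f1 was 0.80 ± 0.19 above MEF in AG-haESC, short of 2-fold, and 1.15 ± 0.21 in E14. In AG-haESC against E14, 0 genes of these lists were called at 2-fold, against 4.58% of all genes higher and 3.74% lower. By the adjusted p alone in limma, Cdk1 (0.57 log2 units), Cenpf (0.72), Rbbp7 (0.43) and Dut (0.38) were higher. Nasp (-0.5), Supt16 (-0.35), Gart (-0.48), Shmt1 (-0.74) and E2f7 (-0.67) were lower. Among all genes 8.08% were higher and 7.77% lower by that rule.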
